A study of Mus musculus with 6 samples.

Results

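The genes described here encode the signals by which skeletal cells control osteoclasts, the cells that resorb bone and mineralised cartilage. They are Tnfsf11 (RANKL), Tnfrsf11b (osteoprotegerin), Tnfrsf11a (RANK), Csf1, Il34, Il6 and Il11. They were chosen by name from the deposited gene table, and all 7 were among its 55401 genes. All 7 also had enough counts to be among the 18218 genes tested.

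RANKL is a membrane-bound or shed cytokine of stromal cells, osteoblasts, osteocytes and hypertrophic chondrocytes. It binds RANK on monocytic precursors and drives them to become osteoclasts, while osteoprotegerin is a secreted decoy receptor that captures RANKL. The precursors survive and multiply through the receptor CSF1R, which both CSF1 and interleukin 34 engage. Interleukins 6 and 11 signal through receptors that share the subunit gp130, and in stromal cells this signal can induce RANKL. In the growth plate, RANKL of hypertrophic chondrocytes supports resorption of calcified cartilage.

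Poly(A) RNA had been sequenced from primary mouse chondrocytes in culture, in 3 Nf2-knockout and 3 control libraries, which the submitters describe as differentiating. Nf2 encodes merlin, a membrane-associated protein upstream of the Hippo kinases. Both groups carry floxed Nf2 (Nf2f/f), deleted in the Nf2-knockout group. No source used here gives the age of the animals, the Cre that made the deletion or whether animals were pooled. Every library name carries the tag D7, which no source used here explains. For Nf2-knockout libraries the treatment field reads TCF21 overexpressing, which their titles do not mention, and Tcf21 had 0, 2 and 0 counts in Nf2-knockout replicates 1 to 3 and 0 in each control library. No label says whether the replicates are separate animals or cultures. The p-values therefore reflect the spread among these 6 libraries alone, and that spread may be technical.

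Library totals lay between 50906043 and 63748798 counts. Nf2 itself had 4592, 6351 and 6503 counts in Nf2-knockout replicates 1 to 3 and 7448, 7153 and 6979 counts in control replicates 1 to 3, which is 95.2 ± 6.58 and 126.8 ± 5.32 CPM (SD, n = 3 each, as for all such values here; CPM is counts scaled to library size and composition). It fell by 0.41 on the log2 scale (adjusted p = 0.0305). The table counts whole genes, so the deleted exons are not seen separately. Chondrocyte markers were present in both groups, and the 3 most abundant of 14 were Comp, Col2a1 and Cnmd. Col2a1 averaged 58.4 ± 22.04 FPKM in the Nf2-knockout set and 21.7 ± 4.66 FPKM in control libraries (FPKM also corrects for transcript length). Comp averaged 140.3 ± 44.1 and 110.4 ± 21.8 FPKM, and Cnmd 12.1 ± 6.89 and 29.7 ± 8.11 FPKM. Others were lower, with Sox9 at 4.14 ± 0.852 and 4.97 ± 0.818 FPKM and Acan at 1.02 ± 0.557 and 1.47 ± 0.292 FPKM. Fibroblastic genes were abundant too, with Lum at 318 ± 166 FPKM in the Nf2-knockout set and 1022 ± 94.6 FPKM in control libraries, Col1a1 at 418 ± 41.5 and 388 ± 67.9 FPKM, and Col3a1 at 207 ± 36.4 and 267 ± 36.9 FPKM. Macrophage markers were detected in both groups. T lymphocyte markers were nearly absent, with 4 of 8 (Cd3d, Cd3e, Cd3g and Cd8a) at 0 counts in all libraries and Lck, the most abundant, at 0.130 ± 0.0339 FPKM in the Nf2-knockout set and 0.169 ± 0.0979 FPKM in control libraries.

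Of the 7 signal genes, Csf1 rose and Tnfsf11 and Il11 fell in Nf2-knockout libraries, 3 calls where 9.29% of all tested genes were called (4.11% higher and 5.18% lower). These were 749 genes higher and 944 lower, whereas limma on filtered FPKM with a pseudocount of 1 called 960 higher and 577 lower. A gene was called at a Benjamini-Hochberg adjusted p under 0.05 in edgeR's quasi-likelihood test over all tested genes. Tnfrsf11b, Il34 and Il6 did not pass, and Tnfrsf11a was at nearly equal, very low levels. The median log2 fold change (Nf2-knockout over control) of the 7 was −0.02, beside −0.01 over all tested genes, since members stood on both sides of 0. In 5 of the 7 the 3 Nf2-knockout values did not overlap the 3 control values, where 32.9% of all tested genes were so separated. For these 5 an exact permutation test (two-sided, 3 libraries each) returned p = 0.1, which is the lowest value the design can reach. Values that do not overlap always give this p, so the test adds nothing to the separation.

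The genes also shared an order of abundance that was the same in all 6 libraries. By FPKM, which allows levels to be compared between genes, it ran Tnfrsf11b, Csf1, Il34, Tnfsf11, Il11, Il6 and Tnfrsf11a. Over all libraries the level of Tnfrsf11b ranged from 171 to 354 FPKM and that of Csf1 from 51.4 to 143.7 FPKM. These 2 did not overlap each other or any other member, and 99.3% and 98.8% of tested genes had a lower mean CPM. Il34 ranged from 10.3 to 16.2 FPKM and Tnfsf11 from 2.81 to 11.8 FPKM, so these neighbours overlapped, and in control libraries their levels did not differ beyond their spread. Il11 ranged from 1.42 to 5.72 FPKM, which overlapped Tnfsf11, and Il6 from 0.615 to 1.75 FPKM, which overlapped Il11. Tnfrsf11a was lowest in each library, at 0.0350 to 0.129 FPKM.

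**Figure D1:**
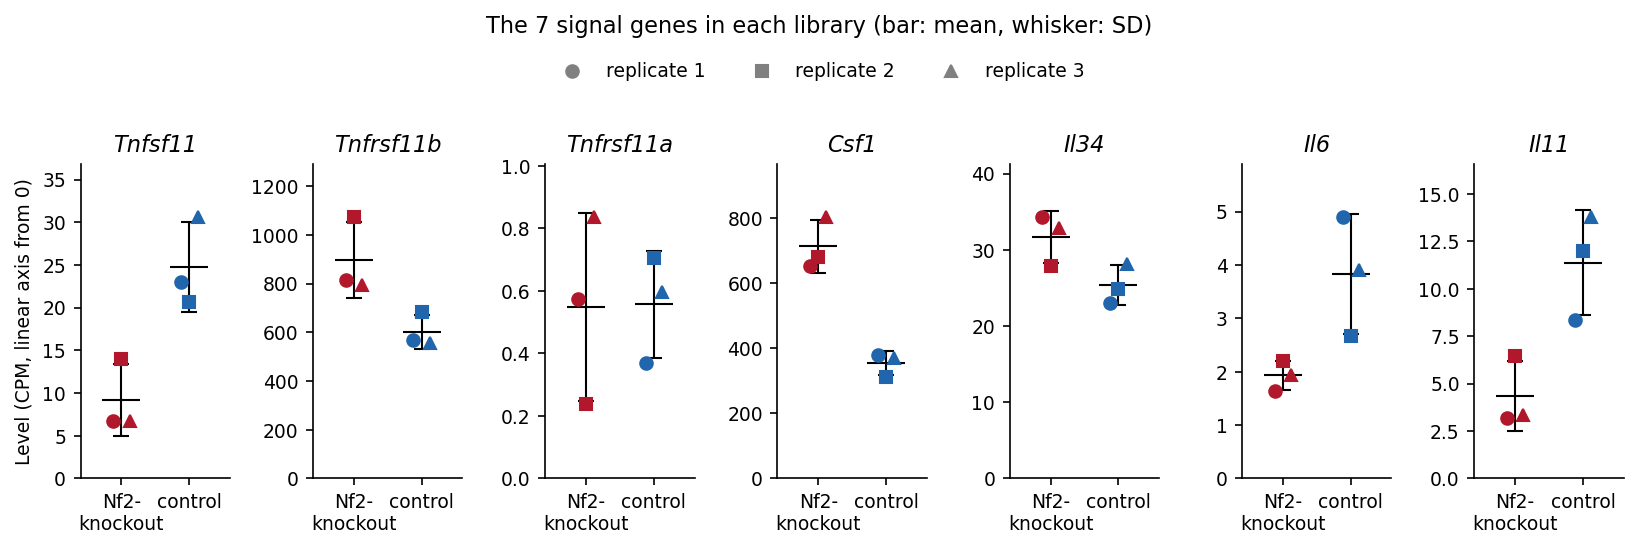
Level of each of the 7 genes in CPM on linear axes from 0, with Nf2-knockout libraries (red) left of control libraries (blue), replicates as symbols, means as bars and SD as whiskers (n = 3 each). Csf1 and Tnfrsf11b lie higher in each Nf2-knockout library than in any control library, Tnfsf11, Il6 and Il11 lie lower, and Il34 and Tnfrsf11a overlap.

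RANKL transcripts were fewer in Nf2-knockout libraries. Tnfsf11 (ENSMUSG00000022015, protein-coding, chr14:78277445-78308043, minus strand, GRCm38) stood at 6.77, 14.01 and 6.69 CPM in Nf2-knockout replicates 1 to 3, against 22.98, 20.6 and 30.7 CPM in control replicates 1 to 3. These rested on 354, 885 and 447 counts in the Nf2-knockout set and 1363, 1113 and 1751 counts in control libraries. Every Nf2-knockout value lay below every control value, with Nf2-knockout replicate 2 the highest of its group. The mean was 9.16 ± 4.203 CPM in the Nf2-knockout set and 24.8 ± 5.24 CPM in control libraries, 37.0% of the control mean, with a log2 fold change of −1.43 (SE 0.321, edgeR adjusted p = 0.0369). The direction held in each fit without 1 library, from −1.88 to −1.24, but the call did not: it was kept without Nf2-knockout replicate 2 (adjusted p = 0.00942) and was lost when any of the other 5 was left out, at adjusted p from 0.0763 (without control replicate 2) to 0.123 (without Nf2-knockout replicate 1).

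Il11 transcripts were also fewer in Nf2-knockout libraries. Interleukin 11 is a stromal cytokine first known for supporting blood cell precursors and, in bone, osteoclast formation. Il11 (ENSMUSG00000004371, protein-coding, chr7:4772373-4782857, minus strand) stood at 3.20, 6.48 and 3.37 CPM in Nf2-knockout replicates 1 to 3, against 8.36, 11.98 and 13.8 CPM in control replicates 1 to 3. The groups did not overlap, and Nf2-knockout replicate 2 was again the highest of its group. The mean was 4.35 ± 1.85 CPM in the Nf2-knockout set and 11.4 ± 2.77 CPM in control libraries, 38.2% of the control mean (log2 fold change −1.39, SE 0.331, adjusted p = 0.0451). As for Tnfsf11, the call was kept without Nf2-knockout replicate 2 (−1.79, adjusted p = 0.0192) and was lost when any of the other 5 was left out, at adjusted p from 0.0577 (without control replicate 1) to 0.1405 (without Nf2-knockout replicate 3).

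Some markers of fibroblasts and chondrocytes also differed between the groups in which Tnfsf11 and Il11 fell, where 9.29% of all tested genes were called. Of 9 fibroblast markers, all tested, 3 fell (Pdgfra, Lum and Fap) and 0 rose, and their summed level was 8143 to 10360 CPM in Nf2-knockout libraries, against 12110 to 15460 CPM in controls. Pdgfra, a growth factor receptor of mesenchymal cells, stood at 229 ± 39.7 CPM in the Nf2-knockout set and 615 ± 21.5 CPM in control libraries (log2 fold change −1.42, adjusted p = 0.00332, kept in all 6 fits without 1 library). Lum fell by 1.78 and Fap by 1.73 on the log2 scale, each kept in 2 of 6, and between 1 and 4 of the list fell with 1 library left out, with 1 fall without Nf2-knockout replicate 1 or any 1 control library. Of 14 chondrocyte markers, all tested, 2 rose (Col10a1 and Col2a1) and 1 fell (Col9a2). The other 11 were not called, and by sign 7 of the 14 were higher and 7 lower (median log2 fold change −0.06). Col10a1, the collagen of hypertrophic chondrocytes, stood at 19.2, 12.7 and 17.9 CPM in Nf2-knockout replicates 1 to 3, against 4.03, 3.15 and 2.57 CPM in control replicates 1 to 3 (log2 fold change 2.35, adjusted p = 0.00417, kept in all 6). Col2a1 rose by 1.33 and Col9a2 fell by 1.55 on the log2 scale, each kept in 1 of 6. The part of these cell types or of chondrocyte stages in the results for Tnfsf11 and Il11 was not tested.

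The sequences 250 bases before the start of the 3 genes that passed the test are printed because these genes moved. They are RefSeq sequences on GRCm38.p6, 5′ to 3′ on the gene's strand. The RefSeq table held 5 of the 7 members, all but Tnfrsf11b and Il34. For Tnfsf11 (chr14:78308044-78308293, minus strand) and Csf1 (chr3:107760470-107760719, minus strand) the window ends just before the start of the deposited gene. Il11 has 2 RefSeq starts, and the window of the inner one is shown, chosen because it held a match (chr7:4778142-4778391, minus strand). Capitals mark matches to any of 7 short motifs searched on both strands.
Tnfsf11: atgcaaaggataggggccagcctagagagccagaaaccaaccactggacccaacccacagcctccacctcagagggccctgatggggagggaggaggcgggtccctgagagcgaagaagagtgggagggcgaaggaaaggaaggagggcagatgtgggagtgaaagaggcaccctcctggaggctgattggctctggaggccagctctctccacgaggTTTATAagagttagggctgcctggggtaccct
Csf1: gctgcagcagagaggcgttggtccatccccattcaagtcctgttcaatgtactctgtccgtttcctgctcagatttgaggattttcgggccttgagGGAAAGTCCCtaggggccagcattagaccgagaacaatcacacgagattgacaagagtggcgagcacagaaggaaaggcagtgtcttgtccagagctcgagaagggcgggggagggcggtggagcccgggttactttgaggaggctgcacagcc
Il11: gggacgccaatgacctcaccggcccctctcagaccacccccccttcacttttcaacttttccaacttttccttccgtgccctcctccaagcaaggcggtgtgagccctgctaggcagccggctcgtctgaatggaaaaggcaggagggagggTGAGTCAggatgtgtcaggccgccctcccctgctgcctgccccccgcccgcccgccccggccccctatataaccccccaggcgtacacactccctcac
The TEAD motif was searched as GGAATG. For AP-1 the letters were TGANTCA, and for the cyclic AMP response element TGACGTCA. The STAT motif was TTCNNNGAA, that of C/EBP was TTGCNNAA, and the TATA box was read as TATAAA. An NF-κB decamer was the seventh, and no matches overlapped in the windows of the members. Tnfsf11 held 1 match, the TATA letters read on the opposite strand, 32 to 27 bases before the start. Csf1 held 1 NF-κB match, GGAAAGTCCC, 154 to 145 bases before it, read on the opposite strand. The inner Il11 window held 1 AP-1 match, 98 to 92 bases before the start, and the outer one none of the 7. Among all 32851 promoter windows of this length, 12.4% held the TATA letters, 0.356% the NF-κB letters and 6.75% the AP-1 letters. The Il6 window held an AP-1, a C/EBP and an NF-κB match, and that of Tnfrsf11a a TEAD match, letters found in 12.6% of all windows. These matches describe letters only.

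Osteoprotegerin, the decoy for RANKL, was among the most abundant transcripts in both groups. Tnfrsf11b (ENSMUSG00000063727, protein-coding, chr15:54250619-54278484, minus strand) stood at 816, 1075 and 796 CPM in Nf2-knockout replicates 1 to 3, against 566, 684 and 558 CPM in control replicates 1 to 3. Each Nf2-knockout value lay above each control value, and replicate 2 was the highest in both groups. The means were 895 ± 156 CPM in the Nf2-knockout set and 603 ± 70.3 CPM in control libraries, 149% of the control mean. The log2 fold change of 0.57 (SE 0.147) did not pass in edgeR (adjusted p = 0.0565), and its unadjusted 95% interval ran from 0.23 to 0.92. DESeq2 (adjusted p = 0.00467), limma on FPKM with a filter on low values (adjusted p = 0.0469) and edgeR with a replicate block (adjusted p = 0.0346) called it. In all it passed in 4 of 13 alternatives. Of the 6 fits without 1 library, 0 called it, at edgeR adjusted p from 0.0781 to 0.142 and log2 fold changes from 0.42 to 0.67.

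Tnfsf11 was lower and Tnfrsf11b, which did not pass in edgeR, was higher, so their ratio necessarily differed more than either gene. Per library, Tnfsf11 stood at 0.0105, 0.0164 and 0.0106 of the Tnfrsf11b level in Nf2-knockout replicates 1 to 3, against 0.0511, 0.0380 and 0.0693 in control replicates 1 to 3 (ratios of FPKM). Put the other way, there were 95.6, 60.9 and 94.5 units of Tnfrsf11b per unit of Tnfsf11 in Nf2-knockout libraries, against 19.6, 26.3 and 14.4 in control libraries. The highest Nf2-knockout ratio lay below the lowest control ratio. The mean ratio was 0.0125 ± 0.00341 in Nf2-knockout and 0.0528 ± 0.0157 in control libraries (SD, n = 3 each), or 0.237 of the control mean, and between 0.199 and 0.280 when 1 library was left out. No test was made of the ratio, which combines genes chosen with results of these data known. It concerns transcripts of the cultures as a whole, and protein was not measured.

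**Figure D2:**
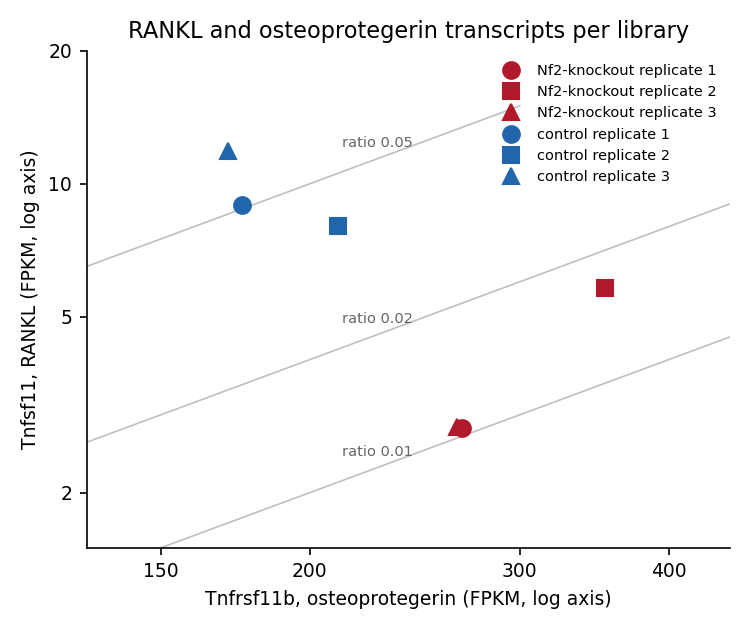
Tnfsf11 against Tnfrsf11b in FPKM, both on log axes, 1 point per library, with Nf2-knockout in red and control in blue and grey lines at constant ratios of Tnfsf11 to Tnfrsf11b. The Nf2-knockout libraries lie between ratios of 0.0105 and 0.0164, and the control libraries between 0.0380 and 0.0693.

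RANK, the receptor on osteoclast precursors, was barely transcribed in these cultures. Tnfrsf11a (ENSMUSG00000026321, protein-coding, chr1:105780718-105847981, plus strand) had 30, 15 and 56 counts in Nf2-knockout replicates 1 to 3 and 22, 38 and 34 counts in control replicates 1 to 3. In CPM these were 0.574, 0.237 and 0.838 in Nf2-knockout libraries, against 0.371, 0.705 and 0.595 in control libraries, and the groups overlapped. The log2 fold change was −0.02 (SE 0.594, adjusted p = 0.991) with an unadjusted 95% interval from −1.41 to 1.38, so at this depth a difference of 2-fold in either direction was not detectable. With 1 library left out the value ranged from −0.46 to 0.35, so its sign turned with the library.

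Csf1, the growth factor on which osteoclast precursors and macrophages depend, was the signal gene with the smallest p-value. Csf1 (ENSMUSG00000014599, protein-coding, chr3:107741048-107760469, minus strand) stood at 654, 681 and 805 CPM in Nf2-knockout replicates 1 to 3, against 381, 312 and 370 CPM in control replicates 1 to 3. The lowest Nf2-knockout library lay 273 CPM above the highest control library. The means were 714 ± 80.8 CPM in the Nf2-knockout set and 354 ± 36.8 CPM in control libraries (log2 fold change 1.01, SE 0.120, adjusted p = 0.00569), a 2.01-fold rise. The call was kept in all 6 fits without 1 library (log2 fold changes from 0.92 to 1.09) and in all 7 other alternatives tried. By p-value Csf1 ranked 186 among the 18218 tested genes.

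Il34, the other ligand of CSF1R, did not pass. Il34 (ENSMUSG00000031750, protein-coding, chr8:110741829-110805903, minus strand) stood at 34.4, 27.8 and 32.9 CPM in Nf2-knockout replicates 1 to 3, against 23.0, 24.9 and 28.2 CPM in control replicates 1 to 3. The groups overlapped, since Nf2-knockout replicate 2 lay just below control replicate 3. The log2 fold change was 0.32 (SE 0.127, adjusted p = 0.174), with an unadjusted 95% interval from 0.02 to 0.62. In the GENCODE M21 annotation 2 antisense genes, Gm15894 and Gm15895, overlap Il34, and no source used here says whether the counting used strand, so their reads cannot be told apart from those of Il34. Per length Csf1 exceeded Il34 in each library, at means of 126 ± 15.5 against 15.1 ± 1.66 FPKM in the Nf2-knockout set and 58.3 ± 6.06 against 11.2 ± 1.08 FPKM in control libraries.

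Interleukin 6, an inflammatory cytokine that stromal cells release on stimulation, was low in both groups. Il6 (ENSMUSG00000025746, protein-coding, chr5:30013114-30019981, plus strand) stood at 1.65, 2.20 and 1.95 CPM in Nf2-knockout replicates 1 to 3, against 4.91, 2.67 and 3.90 CPM in control replicates 1 to 3. The groups did not overlap, though control replicate 2 lay only 0.469 CPM above the highest Nf2-knockout library. The mean was 1.93 ± 0.278 CPM in the Nf2-knockout set and 3.83 ± 1.12 CPM in control libraries, and the log2 fold change of −0.99 (SE 0.290) did not pass in edgeR (adjusted p = 0.0838, unadjusted 95% interval −1.67 to −0.30). DESeq2 called it (adjusted p = 0.0409), as did no other of the 13 alternatives.

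**Figure D3:**
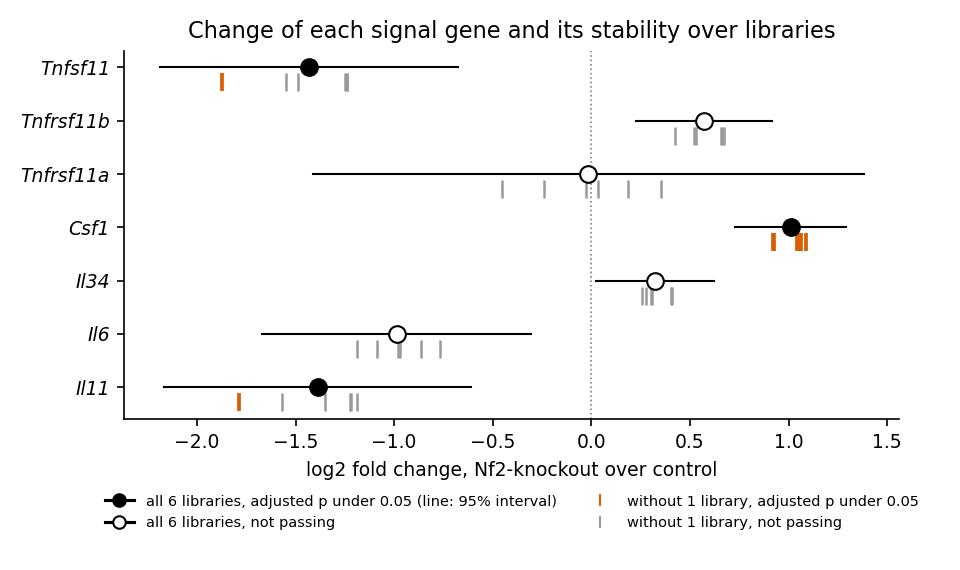
Log2 fold change of Nf2-knockout over control for each gene (circles, filled where the edgeR adjusted p is under 0.05; lines are unadjusted 95% intervals), with ticks below for the 6 fits that left out 1 library, orange where the gene still passed. Csf1 passes in all 6, Tnfsf11 and Il11 in 1 each, and the other genes in none.

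The receptors and partners of these ligands were read from lists of related genes. Of the 6 tested genes of CSF1 reception, 0 rose and 2 fell, with a median log2 fold change of −0.72 beside −0.01 over all tested genes. Csf1r, the receptor of CSF1 and interleukin 34, stood at 1.595 ± 0.251 CPM in the Nf2-knockout set and 4.85 ± 1.61 CPM in control libraries (log2 fold change −1.60, SE 0.303, adjusted p = 0.0219), and Inpp5d, the phosphatase SHIP1 of blood cells, at 0.149 ± 0.0627 and 1.297 ± 0.961 CPM (−3.09, adjusted p = 0.0386). Each of these calls was lost in 4 or 5 of the 6 fits without 1 library. Csf1r is itself a macrophage marker. Macrophage markers moved with this list: 14 of 15 were tested, 0 rose and 5 fell (Csf1r, Mrc1, C1qb, Cd68 and C1qa), and all 14 had negative fold changes with a median of −2.22. With 1 library left out, 0 to 3 macrophage markers fell, 0 of them when the library left out was replicate 1 or 3 of Nf2-knockout or replicate 2 or 3 of control. Their summed level was 43.4 to 105.0 CPM in the Nf2-knockout set and 153.0 to 418.5 CPM in control libraries. The most abundant were Lyz2, at 21.1 ± 11.6 FPKM in the Nf2-knockout set and 76.6 ± 51.8 FPKM in control libraries, Cd68 at 20.6 ± 3.96 and 32.6 ± 4.06 FPKM, and C1qb at 1.805 ± 0.959 and 12.2 ± 8.77 FPKM. In bulk RNA, fewer cells of a type and less RNA per cell cannot be told apart. The part of macrophages in the results for Csf1r, Tnfsf11 or any other gene was not tested. The macrophage sum and Tnfsf11 were both lower in every Nf2-knockout library than in any control library. Within the groups their orders differed. Nf2-knockout replicates 1 to 3 had 105.0, 79.3 and 43.4 CPM of macrophage markers and 6.77, 14.01 and 6.69 CPM of Tnfsf11. Control replicate 2 had the highest macrophage sum (418.5 CPM) and the lowest Tnfsf11 of the controls (20.6 CPM).

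Osteoclast markers ranged from undetected to abundant. Of 12 on the list, Dcstamp, Calcr and Siglec15 had 0 counts in all 6 libraries (a count of 0 allows up to 0.0449 to 0.0574 CPM per library, for counting error only), and Ocstamp had 0 in each Nf2-knockout library and 24, 7 and 8 counts in the controls. Among the 8 tested, 0 rose and 1 fell, Atp6v0d2, a proton pump subunit of osteoclasts and macrophages, at 5.10 ± 1.43 CPM in the Nf2-knockout set and 16.0 ± 2.59 CPM in control libraries (log2 fold change −1.65, adjusted p = 0.0102, kept in all 6 fits without 1 library). Mmp9, a gelatinase of osteoclasts, stood at 0.509 ± 0.515 and 8.42 ± 1.203 CPM and did not pass (adjusted p = 0.0521). The abundant members were Ctsk, at 739 ± 145 FPKM in the Nf2-knockout set and 612 ± 107 FPKM in control libraries, and Acp5, at 38.8 ± 10.4 and 27.7 ± 2.36 FPKM, neither of which passed. Itgb3, the integrin subunit of osteoclasts and other cells, stood at 4.54 ± 1.84 CPM in the Nf2-knockout set and 7.83 ± 2.200 CPM in control libraries and did not pass (adjusted p = 0.2096). The list summed to 1080 to 1545 CPM in the Nf2-knockout set and 1067 to 1408 CPM in control libraries, mostly Ctsk, which fibroblasts also express. Osteoblast markers gave 0 calls by edgeR among 8 tested. Pdpn stood at 230.3 ± 28.2 FPKM in the Nf2-knockout set and 238 ± 7.57 FPKM in control libraries. Ibsp stood at 4.63 ± 2.00 and 4.02 ± 1.19 FPKM and Bglap2 at 11.6 ± 1.05 and 8.91 ± 3.00 FPKM. Less abundant were Alpl, at 1.97 ± 0.725 and 4.50 ± 1.45 CPM (edgeR adjusted p = 0.102), and Dmp1, at 0.999 ± 0.226 and 0.117 ± 0.105 CPM (edgeR adjusted p = 0.101). DESeq2 called 1 osteoblast marker higher and 1 lower.

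On the RANK side, 1 of 15 tested genes of signal transduction rose and 1 fell (median −0.05). Ikbkg, the regulatory subunit of the IκB kinase, stood at 41.6 ± 13.2 CPM in the Nf2-knockout set and 19.4 ± 2.76 CPM in control libraries (log2 fold change 1.10, adjusted p = 0.0345, kept in 1 of 6 fits without 1 library). Mitf, a transcription factor of osteoclasts and melanocytes, stood at 27.3 ± 1.47 and 41.7 ± 3.69 CPM (−0.61, adjusted p = 0.0175, kept in 2 of 6). Traf6, the adaptor that carries the RANK signal, stood at 16.3 ± 0.324 and 22.0 ± 2.52 CPM and did not pass (adjusted p = 0.0693). Nfatc1, the transcription factor that RANK induces, stood at 19.96 ± 0.647 and 22.1 ± 3.96 CPM (adjusted p = 0.603). Tnfsf10, which encodes TRAIL, another ligand of osteoprotegerin, had 0, 4 and 0 counts in Nf2-knockout libraries, against 26, 0 and 12 in controls, too few for the test.

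Among the 17 tested genes of the gp130 cytokine family, to which the Il6 and Il11 receptors belong, 3 rose and 2 fell (median −0.01). Il6ra, the receptor subunit for interleukin 6, rose to 19.5 ± 1.298 CPM in Nf2-knockout, against 10.8 ± 2.41 CPM in control libraries (log2 fold change 0.86, adjusted p = 0.0322, kept in 2 of 6 fits without 1 library), a direction opposite to that of Il6. Il11ra1, the receptor subunit for interleukin 11, stood at 65.3 ± 6.08 and 64.3 ± 9.28 CPM (0.02, SE 0.129, adjusted p = 0.943). Il6st, which encodes gp130, varied within both groups, at 199, 426 and 407 CPM in the Nf2-knockout set and 409, 237 and 393 CPM in control libraries (−0.01, SE 0.320, adjusted p = 0.991). Lif, another ligand of the family, rose to 10.99 ± 2.63 CPM in Nf2-knockout, against 4.91 ± 0.669 CPM in control libraries (1.16, adjusted p = 0.0227, kept in 1 of 6). The receptors Lifr and Osmr, which bind leukaemia inhibitory factor and oncostatin M, fell. Lifr had 11.9 ± 9.26 CPM in the Nf2-knockout set and 59.0 ± 8.23 CPM in control libraries (−2.31, adjusted p = 0.0336, kept in 1 of 6). Osmr had 150.1 ± 27.8 and 298 ± 13.0 CPM (−0.99, adjusted p = 0.00858, kept in all 6). Ptpn11, the phosphatase SHP2 that gp130 recruits, rose to 228.2 ± 9.77 CPM, against 152 ± 6.48 CPM in control libraries (0.58, kept in all 6). Socs3, a feedback inhibitor that STAT3 induces, stood at 73.3 ± 26.9 and 144.1 ± 20.7 CPM and did not pass (adjusted p = 0.0688). With 1 library left out, 1 to 2 genes of this family rose, with 1 rise when that was replicate 1 or 3 of Nf2-knockout or replicate 2 of control, and 1 to 3 fell.

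Other signals listed as promoting osteoclast formation went both ways: of 14 tested, 2 rose and 4 fell (median −0.20). Il7, a lymphoid growth factor, rose to 11 ± 0.646 CPM in Nf2-knockout, against 3.61 ± 0.214 CPM in control libraries (log2 fold change 1.61, adjusted p = 0.00359, kept in all 6 fits without 1 library), and Il15 to 5.10 ± 1.87, against 1.42 ± 0.266 CPM (1.84, kept in 1 of 6). Cxcl12, the chemokine that attracts and retains precursors, fell to 278 ± 93.6 CPM in Nf2-knockout, against 867 ± 105 CPM in control libraries (−1.64, adjusted p = 0.0108, kept in all 6). The chemokine gene Ccl9 fell by 1.09 on the log2 scale (kept in 5 of 6, lost without Nf2-knockout replicate 1) and Mmp14 by 0.63 (kept in 2 of 6). Mmp14 encodes a membrane protease able to shed RANKL. Shedding takes the ligand off the cell surface, so the place of Mmp14 among promoting signals is uncertain. Vegfa also fell, by 0.53, a call kept in 1 of 6. Tnf, Il1b, Il17a and Sost had 0 counts in all 6 libraries. With 1 library left out, 1 to 2 of these genes rose and 1 to 4 fell, with 1 fall without Nf2-knockout replicate 1.

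Among 7 tested signals that restrain osteoclasts, 1 rose and 2 fell (median −0.78). Sema3a, a semaphorin that blocks osteoclast differentiation, rose to 71.0 ± 29.7 CPM in Nf2-knockout, against 22.2 ± 4.58 CPM in control libraries (log2 fold change 1.68, adjusted p = 0.0259, kept in 1 of 6 fits without 1 library). Tgfb1, whose product has both promoting and restraining actions, fell to 71.1 ± 7.93 CPM, against 121.7 ± 4.84 CPM in control libraries (−0.78, adjusted p = 0.0082, kept in all 6). Il18 fell by 1.32 (kept in 2 of 6). Wnt16, an inhibitor that acts partly through osteoprotegerin, stood at 4.11 ± 2.495 and 12.3 ± 3.97 CPM and did not pass (adjusted p = 0.0882). Il13, Ifnb1, Ifng, Csf2 and Fasl had 0 counts in all 6 libraries.

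Of 20 receptors and factors known to induce Tnfsf11, 1 rose and 2 fell (median −0.05). Ptgs2, the cyclooxygenase that makes prostaglandins, rose to 41.9 ± 17.3 CPM in Nf2-knockout, against 12.4 ± 3.71 CPM in control libraries (log2 fold change 1.76, adjusted p = 0.0214, kept in 4 of 6 fits without 1 library). Il1r1, the interleukin 1 receptor, fell to 21.5 ± 6.21 CPM, against 62.0 ± 7.76 CPM in control libraries (−1.52, adjusted p = 0.0101, kept in all 6). Tnfrsf1a, a receptor of tumour necrosis factor, fell by 0.34, a call lost without any 1 library. The vitamin D receptor Vdr stood at 2.71 ± 0.474 and 2.07 ± 0.617 CPM (adjusted p = 0.504). Pth1r, the parathyroid hormone receptor named in the series title, had 7.29, 6.24 and 4.32 CPM in Nf2-knockout replicates 1 to 3, against 8.60, 15.1 and 19.8 CPM in control replicates 1 to 3, groups that do not overlap, and did not pass (−1.28, adjusted p = 0.0582).

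**Figure D4:**
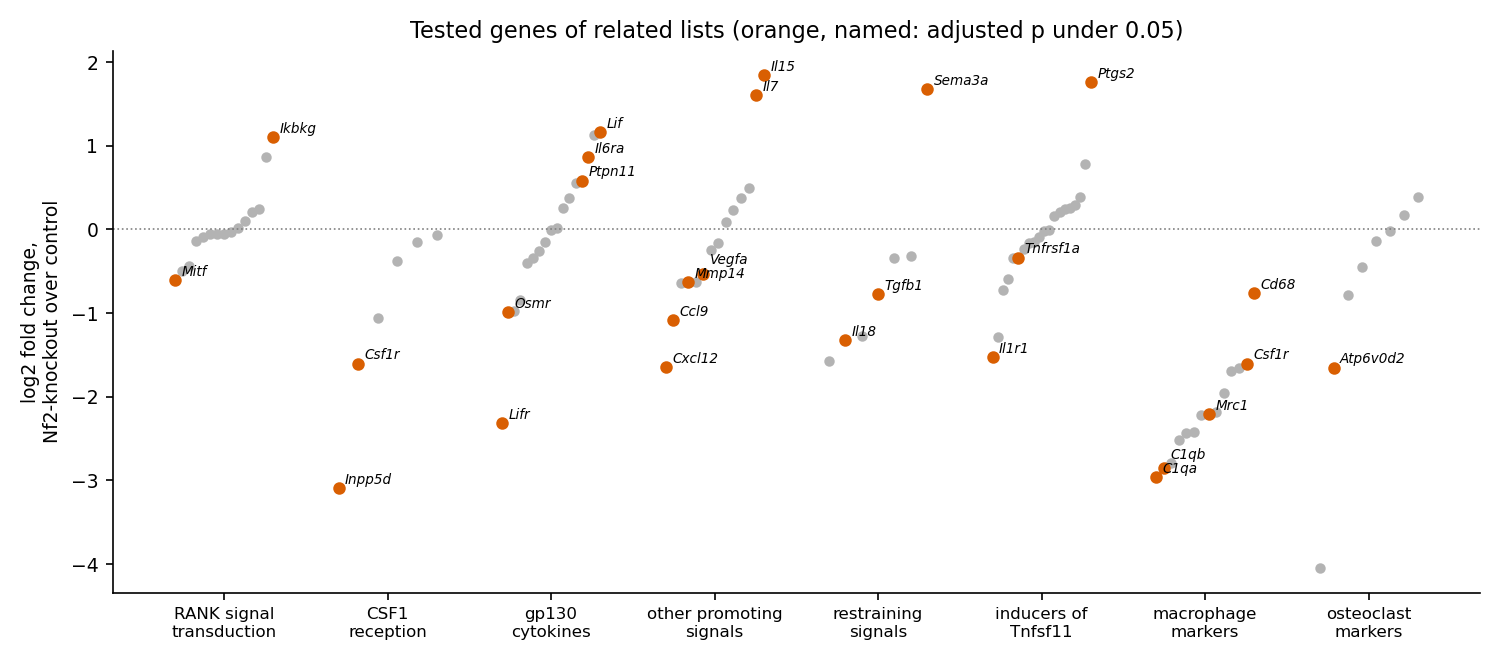
Log2 fold change of Nf2-knockout over control for the tested genes of 6 related lists and 2 marker lists, 1 point per gene ordered by value within its list, with genes at an edgeR adjusted p under 0.05 in orange and named. The 14 tested macrophage markers all lie below 0, and every list but those of CSF1 reception and of macrophage and osteoclast markers holds called genes on both sides of 0.

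The genes whose levels over the 6 libraries ran most like each member (Pearson r of log2 CPM, highest among 11160 tested genes with a mean of at least 5 CPM) are given as a description. The libraries form 2 groups, so a shared difference between groups enters r. Each named gene was picked as the highest of 11160 over only 6 libraries, and r takes no account of the size of a change. For Tnfsf11 they were Fastk (r = 0.991), Pheta1 (0.990) and Porcn (0.990), for Il11 Ephb4 (0.996), Cisd1 (0.996) and Cdc42ep1 (0.994), and for Csf1 E2f6 (0.998), Lasp1 (0.997) and Glud1 (0.997). For Tnfrsf11b they were Slirp (0.993), Tor4a (0.992) and Prrg3 (0.988), for Il6 Ndufa12-ps (0.997), Soat1 (0.996) and Naa50 (0.994), for Il34 Rps19-ps6 (0.995), Gm12696 (0.992) and Cyba (0.990), and for Tnfrsf11a AI987944 (0.978), Abca3 (0.977) and Zfp809 (0.962). Values of the pseudogenes among them are uncertain, since they can share reads with their parent genes.

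The nearest tested gene on either side of each member, chosen after the values were seen, gave 14 flanking genes. Of these, 2 were called, where 9.29% of all tested genes were called. Mtss2, 429 bases from Il34, stood at 68.8 CPM in the Nf2-knockout set and 106 CPM in control libraries (log2 fold change −0.62, adjusted p = 0.0222), opposite in sign to Il34. Gm36211, 59752 bases from Csf1, averaged 0.302 CPM in Nf2-knockout libraries and had no count in control libraries. Akap11 and Epsti1 beside Tnfsf11 (adjusted p = 0.128 and 0.129) and Colec10 and Samd12 beside Tnfrsf11b (0.341 and 0.131) did not pass.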

How the data were processed

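Groups and replicate numbers were taken from sample titles, and columns were matched by library name. Tools listed in the submitters' processing notes are edgeR, StringTie 1.3.4d, HISAT2 2.0.4 and cutadapt 1.9, with no role for any; no source used here names a genome build. The authors deposited whole-number counts, which may be rounded coverage estimates, and FPKM, in which a count of 0 is written 0.0001. Positions equalled those of GENCODE M21 (GRCm38) for 86.9% of 55141 shared genes and for 5 of the 7 members, with Il34 and Il11 differing by 21 and 2 bases at 1 end.

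The deposited counts were tested with edgeR 4.0.16 (R 4.3.3; filterByExpr, TMM, glmQLFit and glmQLFTest on group, two-sided, Benjamini-Hochberg over 18218 genes, threshold 0.05). SE was derived from the fold change and F, and intervals use it with 7.18 degrees of freedom. CPM uses TMM-scaled library sizes. Named genes are all members, up to 4 called genes of each related list, the 3 most abundant markers of each type and the 3 genes most like each member; others were named after their values were seen. The members and lists were chosen with earlier results of these data known. Alternatives were DESeq2 1.42.0, median-of-ratios factors, no filter, a replicate block, leaving out each library, and limma 3.58.1 on log2(FPKM + 1) or log2(FPKM + 0.1). The tests were checked on simulated counts. Depth was at least 50906043 counts per library.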

Additional observations from a re-analysis of the deposited data

How the results depend on the processing

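Csf1 passed under all 13 alternatives, and the sign of every member but Tnfrsf11a was the same in each. Against 1693 calls over all genes (749 rose, 944 fell), DESeq2 made 2618 (1265 rose). Without 1 library there were 629 to 1186, with 309 to 574 that rose and 320 to 706 that fell. In limma on FPKM more genes rose than fell, the opposite balance: 960 rose and 577 fell (pseudocount 1) or 974 rose and 584 fell (pseudocount 0.1) with the filter, and of 1063 calls without it 664 rose and 399 fell. Of the members, 2 rose under DESeq2 and both filtered limma fits, against 1, since Tnfrsf11b passed (0.59, 0.66 and 0.67). Against 2 that fell, 1 did with no count filter and in both filtered limma fits, 0 in unfiltered limma, and 0 to 2 without 1 library. Il6 passed in DESeq2 (−0.97). Il11 did not pass with no count filter (−1.38) or in limma (−0.98 and −1.29 with the filter, −0.98 without), nor Tnfsf11 in unfiltered limma (−1.18). Without 1 library, Tnfsf11 ranged from −1.88 to −1.24, Il11 from −1.79 to −1.19 and Tnfrsf11a from −0.46 to 0.35. Tnfrsf11a turned positive without Nf2-knockout replicate 2 (0.35), control replicate 2 (0.19) or control replicate 3 (0.03), in DESeq2 (0.0025) and in unfiltered limma (0.0037), and the FPKM filter dropped it. The limma fits used the deposited FPKM without TMM scaling. Their median log2 fold change over all genes was 0.05 (pseudocount 1) and 0.09 (pseudocount 0.1) with the filter and 0.02 without it, beside −0.01 in edgeR. TMM factors were 1.03 to 1.05 in Nf2-knockout libraries and 0.958 to 0.972 in control libraries. The cause of the differences between alternatives was not tested. Of 312 counts for the related lists, 118 moved by over 1.5 times. Same-numbered replicates deviated with correlations of −0.0895, 0.0296 and 0.0234, and not every library correlated best with its own number. With 3 libraries per group, centred within each group, these values cannot settle whether the numbers mark a pairing, and no label used here states one. With the replicate number as a block there were 923 calls (389 rose, 534 fell), 2 members rose and 0 fell, with Tnfsf11 at −1.51, Il11 at −1.43 and Tnfrsf11b at 0.56. Depth limits Tnfrsf11a, at 15 to 56 counts per library.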
